A study of Homo sapiens with 10 samples.

Results

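Epithelial cells can lose their junctions and take on a migratory, mesenchymal form, a change called epithelial to mesenchymal transition (EMT). The genes described here stand on opposite sides of that change. They are 5 transcription factors that drive it, ZEB1, ZEB2, SNAI1, SNAI2 and TWIST1, and 5 genes that hold cells in the epithelial state, OVOL1, OVOL2, GRHL2, ESRP1 and ESRP2. They were chosen by name and are 10 of the 58735 genes in the table of read counts. The cells were A253, a human line from a squamous cell carcinoma of a salivary gland, grown as a culture in medium with serum. The control carried an sgRNA against dTomato, a fluorescent protein that human cells lack. Cl1 and Cl10 are clones, each grown from 1 cell. Guides against the introns on both sides of exon 2 of DUSP1 had removed that exon in them. Both clones were heterozygous for this loss. By western blot, the paper found no DUSP1 protein in either clone. Guides and Cas9 were delivered by lentivirus in all 3 groups, so the control cells carry Cas9 and a guide too. A clone is a limited model, since it differs from the control in whatever its founding cell carried as well as in DUSP1. Each group had 2 poly(A)-selected libraries. Nothing in the labels says that the 2 libraries of a group came from separate cultures, so the p-values below measure only the spread between libraries, which may be technical. Both clones were set against the same 2 control libraries, and their values are given side by side for that reason.

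The 5 EMT factors are repressors of epithelial genes in most settings. ZEB and SNAI proteins are zinc finger factors that bind E-box sequences in the promoters of junction genes such as CDH1, and TWIST1 is a basic helix-loop-helix factor that also binds E-boxes. The antagonists act at different steps. OVOL1 and OVOL2 are zinc finger repressors that keep ZEB1 low, GRHL2 is a grainyhead factor that activates junction genes and is in mutual repression with ZEB1, and ESRP1 and ESRP2 are RNA-binding proteins that select the epithelial exons of transcripts such as CD44 and FGFR2. Squamous epithelium normally has SNAI2 together with the epithelial factors, because SNAI2 is also a factor of basal keratinocytes.

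The libraries held 66584988 and 53223425 counts in the control, 70986593 and 49840300 in Cl1, and 57635596 and 47016495 in Cl10. Values below are normalised read counts, scaled to the mean library total of 57547900. DUSP1, the phosphatase gene that was targeted (ENSG00000120129, chromosome 5 of hg38, 172768096 to 172771195, minus strand), was at 744 and 635 normalised counts in the control libraries, at 304 and 354 in Cl1 and at 495 and 415 in Cl10. All 4 clone libraries were below both controls. DUSP1 fell by 1.07 on the log2 scale in Cl1 (adjusted p = 0.000292, standard error 0.149) and by 0.59 in Cl10 (adjusted p = 0.0113, standard error 0.134), so the labels and the target gene pointed the same way. Without Cl10 replicate 2 the value in Cl10 was -0.48 with an adjusted p of 0.0794, the highest over all alternatives, of which the lowest was 2.22e-10. Gene counts cover all exons of DUSP1 and do not separate the deleted exon from the rest.

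The squamous label was checked on 9 markers of squamous epithelial cells (KRT5, KRT14, KRT6A, KRT17, TP63, SFN, EPCAM, CDH1 and PERP), which were detected in every library and summed to 807730 and 835921 normalised counts in the control, 947032 and 951185 in Cl1, and 859672 and 821094 in Cl10. Among them the basal keratin KRT5 had the most normalised counts in the control and Cl1 libraries and KRT14 in the Cl10 libraries, without scaling to length. Of these 9, 2 rose and none fell in Cl1 (22.2%, where 12.4% of all genes rose and 12.8% fell), and in Cl10 2 rose and 1 fell (22.2% and 11.1%, beside 20.6% and 21.8% of all genes). CDH1, the gene of E-cadherin, rose from 21364 and 18552 normalised counts to 36879 and 34457 in Cl1 (log2 fold change 0.84) and to 24873 and 25918 in Cl10 (0.35), and KRT17 fell in Cl10 (-0.50). The 9 fibroblast markers summed to 2915 and 2578 normalised counts in the control, 2655 and 2833 in Cl1, and 1756 and 1848 in Cl10. COL1A1 led that sum, and COL1A2, LUM and THY1 had at most 3 counts in every library. The 6 leukocyte markers summed to 359.5 and 407.5 in the control, 820.5 and 630 in Cl1, and 584 and 514.5 in Cl10, nearly all of it CD14, with CD3E at no more than 3 counts anywhere. The 4 endothelial markers summed to 254 and 157 in the control, 327 and 446 in Cl1, and 239 and 184 in Cl10, led by VWF, with PECAM1 and KDR at no more than 3 counts. In bulk RNA, fewer cells of a type and less RNA per cell cannot be told apart. The part of these small marker sums in the values below was not tested.

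All 10 members passed the filter on low counts in all 3 comparisons. A gene passed the test where its adjusted p was under 0.05. Against the control, 2 members rose and 2 fell in Cl1, where 12.4% of the 20153 genes tested rose and 12.8% fell. In Cl10, 4 members rose and 3 fell, beside 20.6% of 19875 genes that rose and 21.8% that fell. Changes of more than 2-fold were rarer. In Cl1, OVOL1 rose and ZEB1 and TWIST1 fell by more than 2-fold, beside 4.27% and 3.27% of all genes tested, and in Cl10 ZEB1 and TWIST1 fell by more than 2-fold, beside 7.44% of all genes, while 5.98% of all genes rose that far. Between the clones, 3 members were higher and 3 lower in Cl10 than in Cl1, beside 24.9% and 24.1% of 19818 genes. These totals moved with the libraries in the fit. Without Cl1 replicate 1 or without Cl1 replicate 2, 1461 or 1444 genes rose in Cl1 and 1257 or 1417 fell, in place of 2489 and 2575, and without Cl10 replicate 1 or without Cl10 replicate 2, 2444 or 2376 rose in Cl10 and 2819 or 2765 fell, in place of 4103 and 4336. When library size alone replaced TMM normalisation, the split in Cl1 became 1942 higher and 3191 lower. Between the clones it became 5910 higher and 3939 lower in Cl10, in place of 4932 and 4774. For Cl10 against the control it was 4094 higher and 4291 lower.

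**Figure D1:**
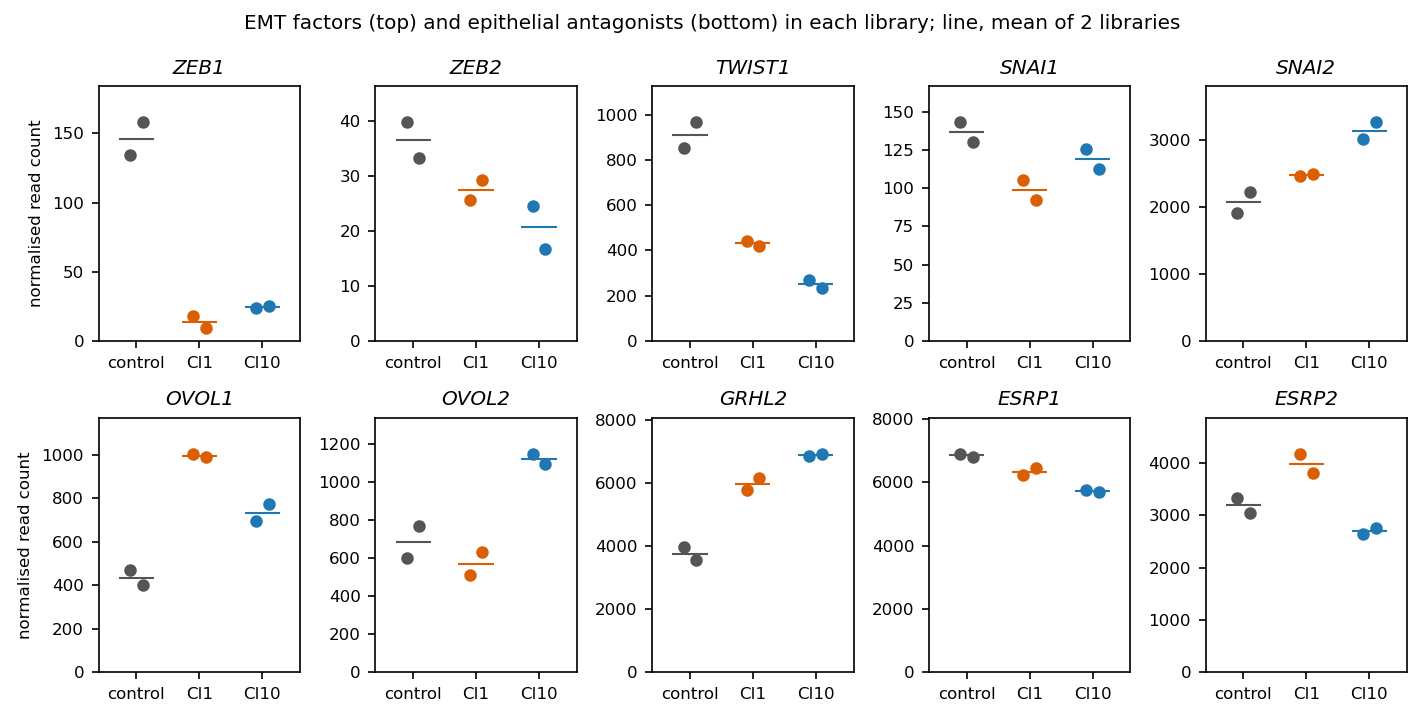
Normalised read counts (vertical axis, from 0) of the 10 members in each of the 6 libraries, with 1 point a library and a line at the mean of each group. ZEB1 dropped from 134.5 and 158 in the control to between 9.37 and 25.1 in the clone libraries. The Cl1 libraries of OVOL2 overlapped the controls. Libraries without overlap were also seen for members that passed in neither clone, such as ZEB2 and SNAI1. For ESRP2 the clones lay on either side of the control.

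ZEB1, the EMT factor with the largest change, lies on chromosome 10 of hg38 (ENSG00000148516, 31318495 to 31529814, plus strand). It had 134.5 and 158 normalised counts in the control libraries, 17.9 and 9.37 in the Cl1 libraries, and 23.6 and 25.1 in the Cl10 libraries. Every clone library was below every control library, and the raw counts behind the Cl1 values were 21 and 8. ZEB1 fell by 3.35 on the log2 scale in Cl1 (standard error 0.317, adjusted p = 1.37e-05), a level 10.2-fold lower, and by 2.58 in Cl10 (standard error 0.232, adjusted p = 0.000287), a level 5.96-fold lower. With so few counts the size of the fall in Cl1 was less sure than its direction. It was -3.94 without Cl1 replicate 1, which is more than 1.5 times the fold over all libraries, and -3.01 without Cl1 replicate 2. The difference between the clones, 0.79 with a standard error of 0.439, did not pass (adjusted p = 0.157).

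The start of ZEB1 is shared with an antisense transcript that moved with it. ZEB1-AS1 begins inside ZEB1 on the opposite strand, and the annotation gives the 2 genes 396 exon bases in common, of 8650 in ZEB1 and 3862 in ZEB1-AS1. ZEB1-AS1 had 667 and 671 normalised counts in the control, 176 and 259 in Cl1, and 253.5 and 307.5 in Cl10, and the clone libraries again all lay below the controls. It fell by 1.63 on the log2 scale in Cl1 (adjusted p = 4.76e-05) and by 1.25 in Cl10 (adjusted p = 0.000479). The strand setting of the counting is not given in the sources used here, so reads in the shared bases cannot be assigned to 1 of the 2 genes with certainty.

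Because both transcripts moved, the promoter window of ZEB1 at the start of its canonical transcript is shown, 250 bases before to 50 after that start as RefSeq (GRCh38.p14) places it, chr10:31318966-31319265 5′ to 3′ on the plus strand. Capitals mark matches to CACCTG or its reverse complement CAGGTG, the E-box form that ZEB and SNAI proteins bind.
ZEB1: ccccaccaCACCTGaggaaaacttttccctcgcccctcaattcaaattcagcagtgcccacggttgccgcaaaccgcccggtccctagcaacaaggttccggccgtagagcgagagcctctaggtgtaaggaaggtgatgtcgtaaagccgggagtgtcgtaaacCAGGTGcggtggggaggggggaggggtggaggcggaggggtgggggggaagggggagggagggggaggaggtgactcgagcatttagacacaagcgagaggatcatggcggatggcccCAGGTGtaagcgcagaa
The 3 matches begin 242 and 85 bases before the start and 33 bases after it. Of the 35116 promoter windows of this length in the table, 20.6% held at least 1 match and 0.635% at least 3. The window had 61.7% G and C. No match to TGANTCA, the AP-1 motif, was in it, and 7.71% of all windows held at least 1. Among the members, windows were looked up only for ZEB1 and ZEB2, which had 7 and 1. Of the other 6 windows of ZEB1, 5 held no match to the E-box form and 1 held 1. The window of ZEB2, which lies at chr2:144520070-144520369 on the minus strand, held neither motif. A match is only a run of letters, and whether a factor binds there was not measured.

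ZEB1 and ZEB2 are also the classic targets of the miR-200 family, small RNAs of epithelial cells that bind the 3′ ends of both transcripts and whose own genes ZEB proteins repress. The mature sequences are given here, 5′ to 3′, because their seeds (bases 2 to 8, in capitals, RefSeq GRCh38.p14) set which transcripts they pair with. The first 3 share a seed, the next 2 share another, and miR-205, which targets the same genes, has a seed of its own.
miR-200b-3p: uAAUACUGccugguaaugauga
miR-200c-3p: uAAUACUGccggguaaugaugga
miR-429: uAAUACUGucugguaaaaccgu
miR-141-3p: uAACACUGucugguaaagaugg
miR-200a-3p: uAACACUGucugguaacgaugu
miR-205-5p: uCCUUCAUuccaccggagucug
The libraries were made from poly(A) RNA and do not show mature miRNAs. The host transcript of miR-200c and miR-141, MIR200CHG, which is named here after its values were seen, had 115 and 132 normalised counts in the control, 125 and 100.7 in Cl1, and 90.4 and 109 in Cl10, and it passed the test in neither clone (log2 fold changes -0.12 and -0.31, adjusted p = 0.728 and 0.251). The host of miR-205, MIR205HG, had 9809 and 10450 in the control, 10995 and 14414 in Cl1, and 4751 and 4190 in Cl10. It fell in Cl10 (log2 fold change -1.18, adjusted p = 0.000196) and stood at 0.33 in Cl1 (adjusted p = 0.107). MIR205HG in Cl10 was also below Cl1 (-1.50, adjusted p = 2.96e-07).

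The 3′ untranslated end of the canonical ZEB1 transcript, 2540 bases, held 6 matches to the site of the first seed, CAGTATT, 3 to that of the next, CAGTGTT, and 1 to that of miR-205, ATGAAGG. Of 2412 canonical 3′ ends within 20% of that length, 0.0415% held as many matches to CAGTATT, 0.663% to CAGTGTT and 19.2% to ATGAAGG. The share for CAGTATT is no larger than ZEB1 alone would give. Each CAGTATT match is given in 22 bases of hg38, plus strand of chromosome 10, with the match in capitals.
chr10:31527619-31527640: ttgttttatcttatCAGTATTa
chr10:31527713-31527734: tgctaaatccgcttCAGTATTt
chr10:31528142-31528163: taagtgccatttctCAGTATTt
chr10:31528493-31528514: tgatttttacctatCAGTATTa
chr10:31528563-31528584: gtcttcaaacctggCAGTATTa
chr10:31529214-31529235: cttttcatcattatCAGTATTt
ZEB2, with 5370 bases of 3′ end, held 5 matches to CAGTATT, as many as 0.0855% of 1170 ends of like length. It held 4 to CAGTGTT, as many as 1.28% of those ends, and none to ATGAAGG. The share for CAGTATT is again no larger than ZEB2 alone would give. OVOL, GRHL2 and ESRP transcripts were not searched. These matches describe the reference transcripts, and the sequences and 3′ ends present in the 3 groups were not compared.

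ZEB2, the paralog of ZEB1 (ENSG00000169554, chromosome 2, 144364364 to 144521057), had the fewest normalised counts of the members in the control. It had 39.8 and 33.3 normalised counts in the control, 25.6 and 29.3 in Cl1, and 24.6 and 16.7 in Cl10. The clone libraries were all below the controls, but the differences did not pass in Cl1 (log2 fold change -0.42, adjusted p = 0.397, standard error 0.341) or in Cl10 (-0.81, standard error 0.342, adjusted p = 0.0965), so a change was not detectable at this depth. ZEB2-AS1, an antisense transcript that overlaps the start of ZEB2, had no count in any library.

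TWIST1 (ENSG00000122691, chromosome 7, 19020991 to 19117636, minus strand) fell in both clones. It had 853 and 966.5 normalised counts in the control, 444 and 420.5 in Cl1, and 270 and 233 in Cl10. The 3 groups did not overlap, with the control highest and Cl10 lowest. On the log2 scale it fell by 1.07 in Cl1 (adjusted p = 0.000131, standard error 0.133) and by 1.84 in Cl10 (adjusted p = 0.000122, standard error 0.126), and Cl10 was below Cl1 by 0.77 on the log2 scale (adjusted p = 0.000246). In Cl1 the fall was under 2-fold without control replicate 2 (-0.97).

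Genes around TWIST1 were also lower in Cl10. Of its 50 nearest tested genes, 39 fell and 2 rose in Cl10, and their median was -0.92 on the log2 scale, against 11 that fell and 9 that rose with a median of -0.06 in Cl1. HDAC9, on 1 side of it, was at -1.04 in Cl1 and -1.11 in Cl10 on the log2 scale, and TWISTNB, on the other, 0.08 in Cl1 and -1.0 in Cl10. With the local median as an offset TWIST1 stayed lower, at -1.01 in Cl1 (adjusted p = 0.000217) and -0.93 in Cl10 (adjusted p = 0.00171). The difference between the clones then turned to 0.20 (adjusted p = 0.223, the highest over all alternatives, of which the lowest was 1.21e-08), so the lower level in Cl10 than in Cl1 was seen only relative to all genes and not relative to the neighbours. Around ZEB1 the same medians were -0.10 in Cl1 and 0.02 in Cl10, and with the offset ZEB1 was at -3.25 and -2.59 (adjusted p = 1.91e-05 and 0.000357).

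**Figure D2:**
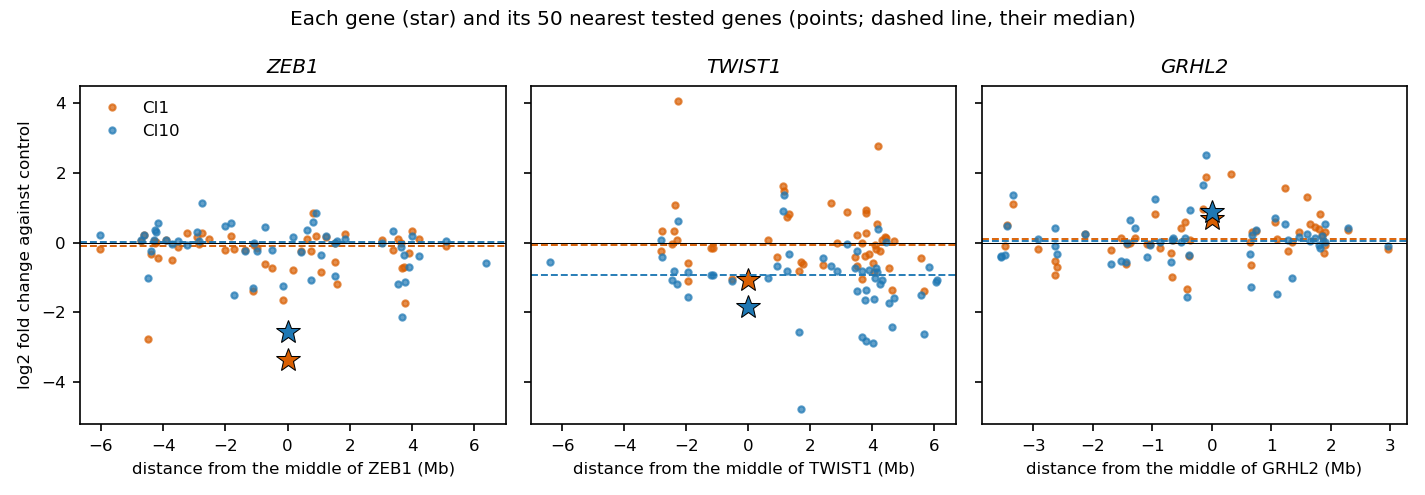
Log2 fold change against the control (vertical axis) of ZEB1, TWIST1 and GRHL2 (stars) and of the 50 tested genes nearest to each (points), by distance in Mb from the middle of the gene (horizontal axis), with dashed lines at the medians of the neighbours. The median around TWIST1 was -0.92 in Cl10 and -0.06 in Cl1, whereas the medians around ZEB1 and GRHL2 were between -0.10 and 0.10.

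SNAI1 passed in neither clone, and SNAI2 rose in Cl10. SNAI1, which represses CDH1 directly (ENSG00000124216, chromosome 20, 49982980 to 49988886), had 143 and 130 normalised counts in the control, 105 and 92.5 in Cl1, and 126 and 112.5 in Cl10. The clone libraries lay below the controls, and the differences of -0.46 in Cl1 (adjusted p = 0.125, standard error 0.208) and -0.19 in Cl10 (adjusted p = 0.412, standard error 0.175) on the log2 scale did not pass. SNAI2 (ENSG00000019549, chromosome 8, 48917598 to 48921740) was the most abundant of the EMT factors in every group. It had 1914 and 2223 normalised counts in the control, 2458 and 2496 in Cl1, and 3009 and 3261 in Cl10, without overlap between groups. Against the control its log2 fold change was 0.61 in Cl10 (standard error 0.0999, adjusted p = 0.00321) and 0.26 in Cl1 (standard error 0.113, adjusted p = 0.11), where it passed without control replicate 2 (0.38, adjusted p = 0.0053, with a range from 0.0053 to 0.4 over all alternatives). Cl10 was above Cl1 by 0.34 (adjusted p = 0.000658).

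**Figure D3:**
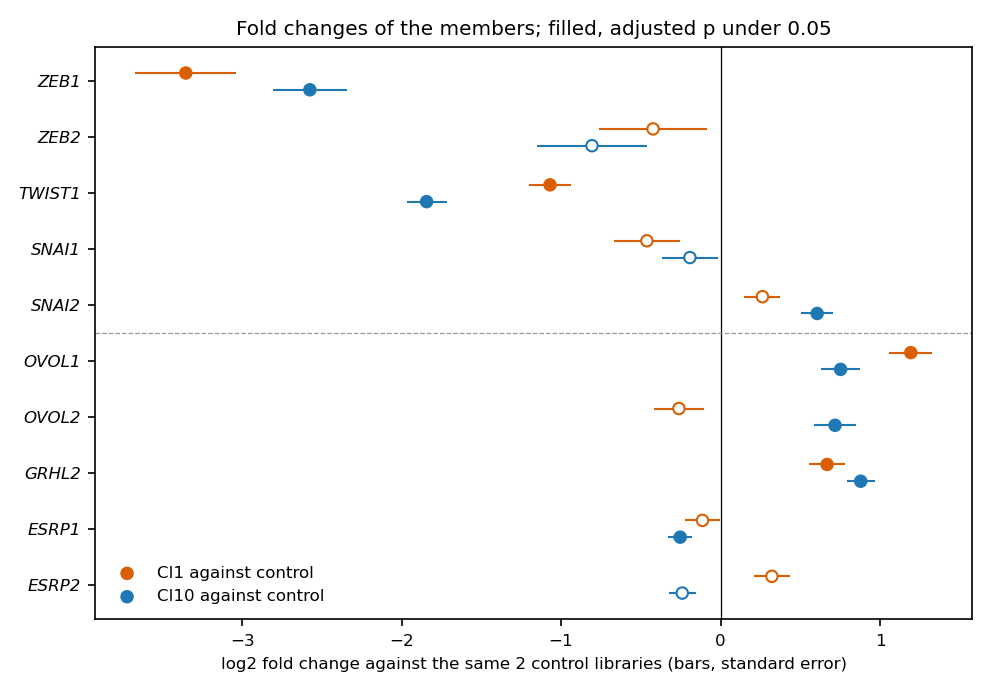
Log2 fold changes (horizontal axis) of the 10 members in each clone, against the same 2 control libraries, with bars of 1 standard error and filled points for an adjusted p under 0.05. ZEB1 and TWIST1 lie to the left in both clones, between -3.35 and -1.07, and OVOL1 and GRHL2 to the right, between 0.67 and 1.19.

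Among the antagonists, OVOL1 and GRHL2 rose in both clones. OVOL1 (ENSG00000172818, chromosome 11, 65787063 to 65797214) had 471 and 401 normalised counts in the control, 1005 and 990 in Cl1, and 696 and 773 in Cl10, so Cl1 was highest and no groups overlapped. OVOL1 rose by 1.19 on the log2 scale in Cl1 (adjusted p = 5.96e-05, standard error 0.134) and by 0.75 in Cl10 (standard error 0.124, adjusted p = 0.00319), and Cl10 was below Cl1 by 0.44 (adjusted p = 0.0012). Around OVOL1, 27 of its 50 nearest genes rose and 3 fell in Cl10, with a median of 0.39, and with that median as an offset its log2 fold change in Cl10 was 0.37 and no longer passed (adjusted p = 0.053, beside a range from 7.22e-14 to 0.053 over all alternatives). In Cl1 the local median was 0.12, and OVOL1 was at 1.07 with the offset (adjusted p = 0.000142). AP5B1, the tested gene before it, also rose, by 0.76 and 0.92. Its antisense partner OVOL1-AS1 was near the limit of detection, with 13.5 to 24.8 normalised counts over the 6 libraries.

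OVOL2, a repressor of ZEB1 in epithelial cells and the paralog of OVOL1 (ENSG00000125850, chromosome 20, 17956979 to 18059188), behaved differently in the clones. It had 603 and 769 normalised counts in the control, 511 and 632.5 in Cl1, and 1148 and 1095 in Cl10. The Cl10 libraries were above all others, whereas the Cl1 libraries overlapped the controls. OVOL2 rose by 0.72 on the log2 scale in Cl10 (standard error 0.129, adjusted p = 0.00456) and was at -0.26 in Cl1 (standard error 0.158, adjusted p = 0.253), where it was -0.43 without control replicate 1 (adjusted p = 0.0134, with a range from 0.0134 to 0.779 over all alternatives). The difference between the clones itself passed, with Cl10 higher by 0.98 (standard error 0.104, adjusted p = 7.86e-06). Per kb of exon, OVOL1 was at 0.453 and 0.302 of the level of OVOL2 in the control, at 1.14 and 0.906 in Cl1 and at 0.351 and 0.409 in Cl10.

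GRHL2 (ENSG00000083307, chromosome 8, 101492439 to 101669726, plus strand) was the most abundant of the transcription factors among the antagonists. It had 3968 and 3544 normalised counts in the control, 5761 and 6160 in Cl1, and 6855 and 6913 in Cl10, and the 3 groups did not overlap. GRHL2 rose by 0.67 on the log2 scale in Cl1 (adjusted p = 0.00122, standard error 0.114) and by 0.88 in Cl10 (standard error 0.0887, adjusted p = 0.000441). Cl10 was above Cl1 by 0.21 (adjusted p = 0.0103), a small difference that did not pass at a threshold of 0.01, without Cl10 replicate 1 (adjusted p = 0.0989), without Cl10 replicate 2 (adjusted p = 0.129) or in the fit over all 6 libraries at once (adjusted p = 0.089), with a range from 5.61e-07 to 0.129 over all alternatives. The medians of its 50 nearest genes were 0.10 and 0.06. AP001207.3, a transcript that overlaps GRHL2, rose with it, by 1.88 in Cl1 and 2.51 in Cl10 on the log2 scale, and the overlap leaves the origin of its reads uncertain. The paralogs of GRHL2 moved otherwise. GRHL1 fell in Cl10 (-0.87, adjusted p = 0.00128) and was at 0.16 in Cl1 (adjusted p = 0.371), and GRHL3, a factor of keratinocyte differentiation, rose in Cl1 (0.78, adjusted p = 0.000556) and was at -0.30 in Cl10 (adjusted p = 0.0508).

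ESRP1 and ESRP2 moved by small amounts. ESRP1 (ENSG00000104413, chromosome 8, 94641074 to 94707466) had 6896 and 6811 normalised counts in the control, 6217 and 6436 in Cl1, and 5772 and 5694 in Cl10. The groups did not overlap, but the differences were small, at -0.11 on the log2 scale in Cl1 (adjusted p = 0.493, standard error 0.11) and -0.25 in Cl10 (standard error 0.0765, adjusted p = 0.0343). The fall in Cl10 did not pass at a threshold of 0.01. Other alternatives in which it did not pass included those without Cl10 replicate 1 (adjusted p = 0.373), without Cl10 replicate 2 (adjusted p = 0.406), with DESeq2 (adjusted p = 0.0613) and with the local median as an offset, where it was -0.05 (adjusted p = 0.617). Over all alternatives its adjusted p ran from 2.97e-08 to 0.617. ESRP2 (ENSG00000103067, chromosome 16, 68229033 to 68238102) had 3335 and 3051 normalised counts in the control, 4172 and 3800 in Cl1, and 2636 and 2754 in Cl10. It was above the control in both Cl1 libraries and below it in both Cl10 libraries. Neither difference passed, at 0.32 on the log2 scale in Cl1 (adjusted p = 0.0525, standard error 0.112) and -0.24 in Cl10 (standard error 0.0849, adjusted p = 0.0572), but the clones differed from each other by -0.56 (standard error 0.0645, adjusted p = 1.5e-05). Both values against the control were near the threshold and passed in some alternatives. Among these were, in Cl1, the fits without control replicate 1 (adjusted p = 0.00187), over all 6 libraries at once (0.0191), with the size factors of DESeq2 (0.0458) and with at least 10 counts in every library (0.047). Among them in Cl10 were the fits without control replicate 1 (0.00222), without control replicate 2 (2.52e-08), over all 6 libraries at once (0.0441), with no filter (0.0419) and with the local median as an offset, where ESRP2 was at -0.46 (0.00567). Over all alternatives the adjusted p ran from 0.00187 to 0.418 in Cl1 and from 2.52e-08 to 0.462 in Cl10.

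Levels of different genes were compared per kb of exon. In the control ESRP1 was highest, with a mean of 1406 normalised counts per kb, followed by SNAI2, GRHL2 and ESRP2 at 630.5, 620.5 and 615, whose libraries overlapped, and then by TWIST1 at 455.5, OVOL2 at 311, OVOL1 at 115, SNAI1 at 80.1, ZEB1 at 16.9 and ZEB2 at 1.40. In Cl1 the order was ESRP1 (1298), GRHL2 (985), ESRP2 (768) and SNAI2 (755), the last 2 overlapping, then OVOL1 (262) and OVOL2 (260), which overlapped, and TWIST1 (216). In Cl10 it was ESRP1 (1176), GRHL2 (1137), SNAI2 (956), ESRP2 (519) and OVOL2 (509), the last 2 overlapping, then OVOL1 (193) and TWIST1 (126). TWIST1 thus passed from the fifth place to the seventh in both clones, and SNAI1, ZEB1 and ZEB2 kept the last 3 places in each group, with overlapping libraries of ZEB1 and ZEB2 in Cl1. The annotated exons of ZEB2 together span 26151 bases, well beyond its canonical transcript of 9265 bases, so its level per kb is a low estimate. To a lesser degree the same holds for ZEB1, with 8650 exon bases and a canonical transcript of 5937.

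The level of ZEB1 was small beside that of SNAI2 and TWIST1 even in the control. ZEB1 made up 1.40% and 1.45% of the summed level of the 5 EMT factors per kb in the control, 0.20% and 0.105% in Cl1, and 0.241% and 0.246% in Cl10. SNAI2 made up 52.5% and 53.9% in the control, 72.3% and 74.0% in Cl1, and 81.2% and 84.2% in Cl10, and TWIST1 38.4% and 38.5%, 21.5% and 20.5%, and 12% and 9.9% in the same order. The sum itself was 1111 and 1257 per kb in the control, 1036 and 1028 in Cl1, and 1130 and 1180 in Cl10, so in Cl1 it lay below both controls and in Cl10 between them. The summed antagonists were at 3110 and 3025 in the control, 3528 and 3618 in Cl1, and 3529 and 3541 in Cl10. Their ratio to the EMT factors was 2.80 and 2.41 in the control, 3.40 and 3.52 in Cl1, and 3.12 and 3.0 in Cl10.

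Ratios of GRHL2 to ZEB1 and to TWIST1 were chosen because those 2 genes had fallen. GRHL2 was 42.2 and 32.0 times as high as ZEB1 per kb in the control libraries. It was 459 and 939 times as high in Cl1, where ZEB1 had 21 and 8 raw counts, and 415 and 393 times in Cl10. Over TWIST1, GRHL2 was at 1.54 and 1.21 in the control, 4.28 and 4.83 in Cl1, and 8.37 and 9.78 in Cl10. Over SNAI2, the most abundant EMT factor, GRHL2 was at 1.12 and 0.864 in the control, 1.27 and 1.34 in Cl1, and 1.23 and 1.15 in Cl10, and ESRP1 over SNAI2 was at 2.42 and 2.06, at 1.70 and 1.74, and at 1.29 and 1.17 in the same order. These ratios are descriptions within libraries, and no test was made on them.

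**Figure D4:**
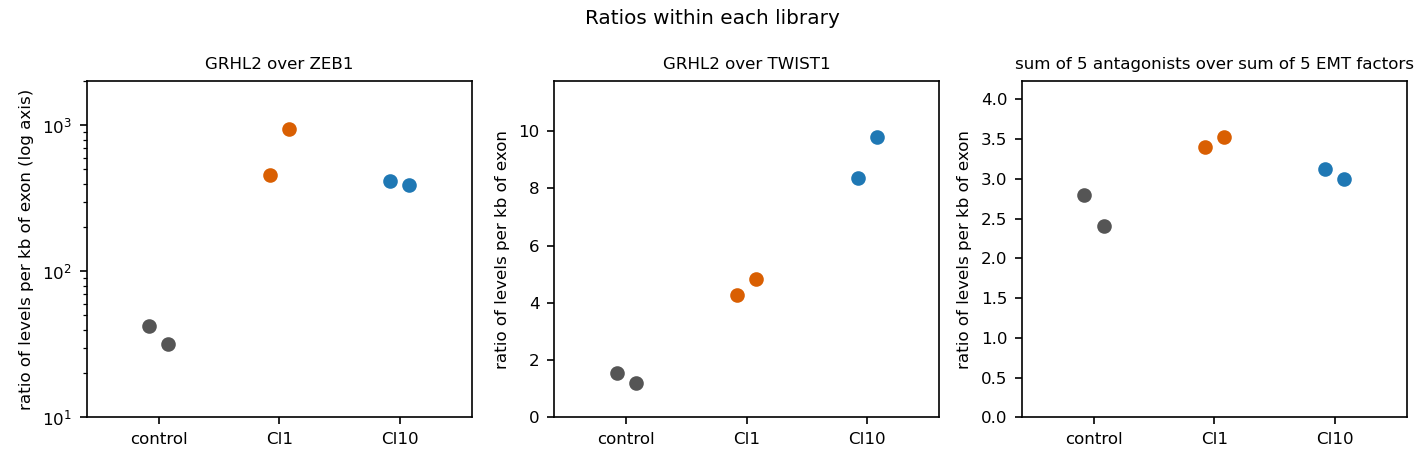
Ratios of levels per kb of exon within each of the 6 libraries, with 1 point a library, for GRHL2 over ZEB1 (log axis), GRHL2 over TWIST1 and the summed antagonists over the summed EMT factors (both from 0). GRHL2 over ZEB1 was at 32.0 and 42.2 in the control and at 393 to 939 in the clones. Its Cl1 values rest on 21 and 8 raw counts of ZEB1. The ratio of the sums moved from 2.41 and 2.80 to between 3.0 and 3.52.

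The epithelial genes that the EMT factors repress and GRHL2 and OVOL proteins keep on were 32. Of these, 14 rose and 1 fell in Cl1 (43.8% and 3.12%, beside 12.4% and 12.8% of all genes), and the median log2 fold change was 0.26, beside -0.01 over all genes tested. In Cl10 9 of 31 tested rose and 7 fell (29% and 22.6%, beside 20.6% and 21.8% of all genes), CLDN3 being too low to test there, with a median of 0.09, again beside -0.01 over all genes. CLDN1, a tight junction claudin, had 831.5 and 825 normalised counts in the control, 1581 and 2098 in Cl1, and 3258 and 3491 in Cl10, with log2 fold changes of 1.15 (adjusted p = 0.000102) and 2.03 (adjusted p = 2.79e-05). MARVELD3, another tight junction gene, rose by 0.63 and 1.13. Other genes of the list moved in 1 clone or in opposite directions. KRT8, a keratin of simple epithelium, was at 87310 and 99524 normalised counts in the control, at 94288 and 81344 in Cl1 and at 36608 and 37379 in Cl10 (log2 fold change -1.33, adjusted p = 0.000161), and TJP3, a tight junction scaffold, rose in Cl1 (0.66) and fell in Cl10 (-0.95). CDH3 and MAL2 were the most abundant of those that passed in neither clone, with log2 fold changes between -0.05 and 0.26.

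Of 26 mesenchymal genes, 21 were tested in Cl1, where 6 rose and 7 fell (28.6% and 33.3%, beside 12.4% and 12.8% of all genes), with a median of -0.17, and 22 in Cl10, where 9 rose and 8 fell (40.9% and 36.4%, beside 20.6% and 21.8%), with a median of 0.19. By more than 2-fold, 2 rose and 5 fell in Cl1, where 4.27% and 3.27% of all genes did, and 1 rose and 4 fell in Cl10, where 5.98% and 7.44% did. CDH2, COL1A2, POSTN and THY1 were too low to test in either clone, and MMP3 in Cl1. VIM, an intermediate filament gene that marks mesenchymal cells, had 3884 and 4668 normalised counts in the control, 138 and 104 in Cl1, and 88.4 and 108 in Cl10, and its log2 fold changes were -5.12 (adjusted p = 3.39e-09) and -5.45 (adjusted p = 8.05e-06). CDH11, a mesenchymal cadherin, went in opposite directions, from 1065 and 1064 to 161 and 126.5 in Cl1 (-2.87, adjusted p = 1.93e-07) and to 1970 and 2089 in Cl10 (0.94, adjusted p = 0.000265). LOX, which crosslinks collagen, rose in both (1.72 and 0.98), ITGA5, a fibronectin receptor chain, fell in both (-0.50 and -1.55), and FBN1 fell in Cl1 (-1.64) and was at 0.67 in Cl10 (adjusted p = 0.0719). The other genes of the list that passed in the same direction in both clones are named here after their values were seen. FN1, the fibronectin gene (-1.37 and -1.49), ACTA2 (-1.48 and -2.87) and MMP2 (-0.34 and -0.69) fell in both. S100A4 (1.01 and 0.90), SPARC (0.72 and 0.38), COL5A1 (0.615 and 0.564) and LOXL2 (0.63 and 0.33) rose in both. AXL and TAGLN passed in neither clone.

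Genes upstream of the EMT factors were described with 12 genes of TGF-beta signalling, the pathway that induces SNAI and ZEB genes in many epithelia. In Cl1 4 rose and 1 fell (33.3% and 8.33%, beside 12.4% and 12.8% of all genes), and in Cl10 9 rose and 2 fell (75% and 16.7%, beside 20.6% and 21.8%), with medians of 0.14 and 0.51. TGFBR2, the type II receptor, had 3099 and 2785 normalised counts in the control, 3999 and 3811 in Cl1, and 7567 and 7823 in Cl10 (log2 fold changes 0.41 and 1.39, adjusted p = 0.0172 and 9.96e-05). SMAD7, an inhibitor that the pathway induces, rose by 1.13 and 1.27, and SKIL, another inhibitor of SMAD proteins, by 0.64 and 0.61. TGFB2, a ligand, rose by 0.63 and 1.14, and TGFBR3, a co-receptor, was at -0.15 in Cl1 (adjusted p = 0.412) and rose by 0.95 in Cl10. TGFB3 passed in neither clone. Of the 10 co-repressors that ZEB and SNAI proteins recruit, edgeR passed 0 in Cl1, where 3 had an unadjusted p under 0.05 and DESeq2 passed 1, and in Cl10 3 rose and 1 fell (30% and 10%). CTBP1, a partner of ZEB1, fell in Cl10 (-0.59, adjusted p = 0.00147), where the median of its 50 nearest genes was -0.82, and EZH2, a histone methyltransferase, rose there (0.58, adjusted p = 0.00179). KDM1A and HDAC2 passed in neither clone.

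Among 15 other EMT transcription factors, 14 were tested, PRRX1 being too low. In Cl1 1 rose and 5 fell (7.14% and 35.7%, beside 12.4% and 12.8% of all genes), and in Cl10 2 rose and 4 fell (14.3% and 28.6%, beside 20.6% and 21.8%), with medians of -0.27 and -0.13. FOXC2 fell in Cl1 (-0.80, adjusted p = 0.00208) and was at 0.22 in Cl10 (adjusted p = 0.139), TBX2 fell in Cl10 (-1.20), and TBX3 and FOXC1 rose in Cl10 (0.88 and 0.76). TCF3 and TCF4, which form dimers with TWIST1, passed in neither clone. Of 14 other epithelial regulators, 13 were tested, ELF5 being too low. In Cl1 4 rose and 1 fell (30.8% and 7.69%), and in Cl10 3 rose and 4 fell (23.1% and 30.8%). KLF5 fell in both (-0.74 and -0.30), TFAP2C rose in Cl10 (0.48), and TP63 and EHF passed in neither.

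ESRP proteins act on exon choice, which gene counts do not show. The 12 transcripts known as their targets were described only by total level. In Cl1 6 rose (50%, beside 12.4% of all genes) and none fell, with a median of 0.35, and in Cl10 8 rose (66.7%, beside 20.6%) and none fell, with a median of 0.41. FGFR2, whose epithelial isoform needs ESRP proteins, rose by 0.44 and 1.20 (adjusted p = 0.0107 and 0.000124), ENAH by 1.05 and 0.83, RALGPS2 by 0.55 and 0.84, CTNND1, the p120 catenin, by 0.71 and 0.40, and TCF7L2 by 0.68 and 0.63. Around CTNND1 the medians of the 50 nearest genes were 0.46 in Cl1 and 0.60 in Cl10, the latter above its own change. They were 0.47 and 0.18 around RALGPS2, 0.355 and 0.034 around ENAH, 0.02 and 0.21 around FGFR2, and -0.01 and 0.16 around TCF7L2. CD44 was at 141486 and 138487 normalised counts in the control, 158347 and 147751 in Cl1, and 138440 and 147028 in Cl10, and like NUMB it passed in neither clone. SNAI3-AS1, at another gene of the SNAI family, fell in Cl1 (-0.46, adjusted p = 0.0423) and was at -0.17 in Cl10 (adjusted p = 0.278).

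**Figure D5:**
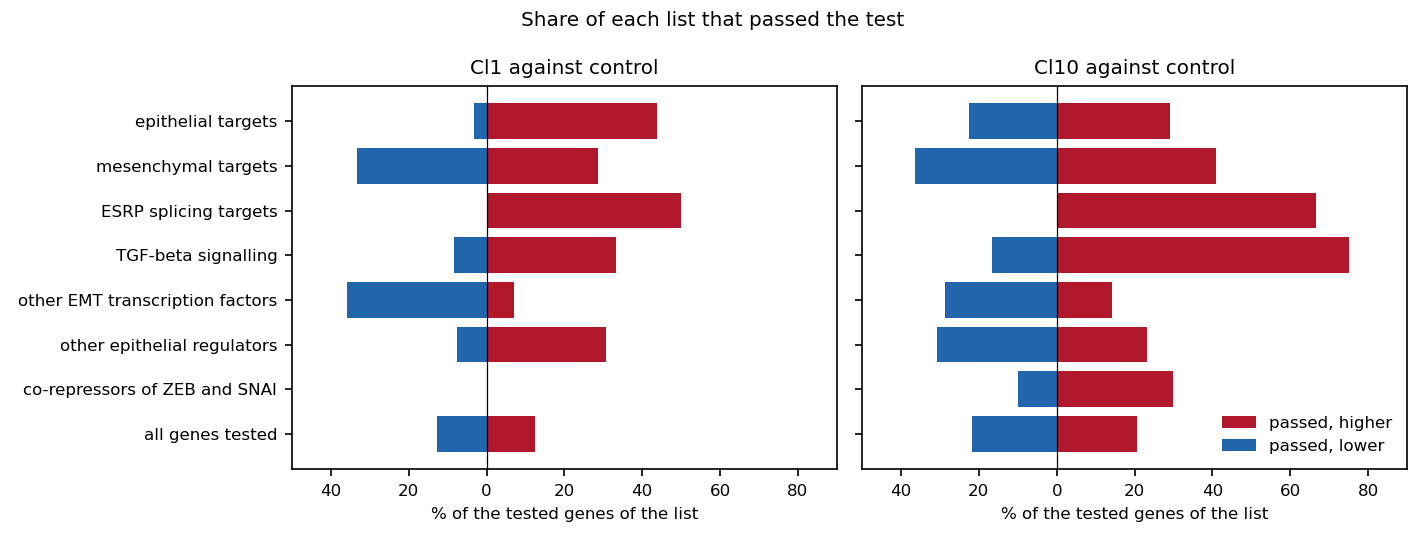
Share of the tested genes of each list that passed the test and were higher (red, to the right) or lower (blue, to the left) in Cl1 and in Cl10, in percent, beside all genes tested. Epithelial targets were more often higher than lower in Cl1 (14 and 1 of 32) and divided in Cl10 (9 higher and 7 lower of 31), and mesenchymal targets were divided in both.

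Genes with the pattern most like a member were sought over the 6 libraries among 14885 genes by the Pearson correlation of log2 CPM, as a description. The points are 3 pairs of libraries, so any gene that separates the groups in the same proportions ranks high. Closest to ZEB1 were OARD1 (r = 0.998), AC004943.2 (0.998), CMBL (0.997), NFIL3 (0.997) and MRPS27 (0.997), and most opposed were SSH3 (-0.998), GALNT1 (-0.998) and DIO2 (-0.997). Closest to OVOL1 were EDARADD (0.999), ZNF783 (0.997), DNM2 (0.997), LAMA4 (0.997) and TMEM30A (0.997), and most opposed were MIS18A (-0.999), RCN3 (-0.999) and KDELC1 (-0.998). Their changes were smaller than that of ZEB1 itself, for example -0.57 in Cl1 and -0.40 in Cl10 for OARD1.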

How the data were processed

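RNA of 6 libraries in 3 groups was analysed, and 4 samples of a SOX2 experiment were not. The authors, who deposited raw counts for each gene, aligned to hg38 with HISAT2. For counting and testing the paper names HTSeq and DESeq2, whereas the sample labels name StringTie and DESeq, so the counting tool is not settled here. The annotation and the strand setting are not given in the sources used here. For the libraries the sample labels name the Illumina Stranded mRNA Prep and the paper the Illumina TruSeq RNA kit, so the kit is not settled either. Each clone was fitted with the control, and Cl10 with Cl1, over all genes in edgeR 4.0.16 (R 4.3.3: filterByExpr, TMM, glmQLFit, glmQLFTest) with Benjamini-Hochberg adjustment. Each standard error was taken as the absolute unshrunken fold change (log2) over root F. Counting precision follows from the raw counts, and a floor of 3 counts covers counting error only. Positions come from GENCODE release 44, which held 58207 of the gene identifiers, and levels per kb use the union of annotated exons. Motifs were searched on both strands, CACCTG and CAGGTG being 1 motif read on each strand, and none overlapped. The members and lists were chosen with earlier results of these data known. From each list were named up to 5 genes with the largest absolute log2 fold change in either clone, counted where it passed, with a mean CPM of at least 1, and up to 2 with the highest mean CPM that passed in neither clone. Some list genes that this rule covers are not reported here. Exceptions are stated in the text, and list counts of 5 or fewer genes too low to test are named. Alternatives were DESeq2 1.42.0 and its size factors, library size only, other filters, 1 fit over 6 libraries, a replicate block, an adjusted p under 0.01, the median of the 50 nearest genes as an offset, and each library left out. The code was checked on simulated data.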

Additional observations from a re-analysis of the deposited data

Results flagged for a closer look

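For 6 of the 10 members the 2 clones differed from each other in the direct test of Cl10 against Cl1, which used no control library (3 were higher and 3 lower in Cl10, beside 24.9% and 24.1% of all genes tested). The log2 fold change of Cl10 over Cl1 was 0.98 for OVOL2, -0.77 for TWIST1, -0.56 for ESRP2, -0.44 for OVOL1, 0.34 for SNAI2 and 0.21 for GRHL2, with adjusted p-values of 7.86e-06, 0.000246, 1.5e-05, 0.0012, 0.000658 and 0.0103. Against the control, OVOL2 passed in Cl10 and its Cl1 libraries overlapped the control, and ESRP2 passed in neither clone. TWIST1, OVOL1 and GRHL2 passed in both clones with the same direction, and SNAI2 only in Cl10. The value of TWIST1 turned to 0.20 with the local median as an offset, and that of GRHL2 did not pass without Cl10 replicate 1 (adjusted p = 0.0989), without Cl10 replicate 2 (adjusted p = 0.129), in the fit over all 6 libraries at once (adjusted p = 0.089) or at a threshold of 0.01. With 2 libraries a group, no library was tested as an outlier within its group.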

How the results depend on the processing

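Under 16 alternatives, 408 values of the members' log2 fold changes were computed, of which 379 kept their direction and their side of the threshold, 17 passed in addition, 11 no longer passed and 1 turned direction, that of TWIST1 in Cl10 against Cl1, at 0.20 with the local median as an offset. ZEB1, TWIST1, OVOL1 and GRHL2 in Cl1 and ZEB1, TWIST1, SNAI2, OVOL2 and GRHL2 in Cl10 passed with the same direction in every alternative that gave a value; ZEB1 in Cl1 had none with at least 10 counts in every library, because 1 library held 8. That filter left 1 member lower in Cl1. At an adjusted p under 0.01, 1366 genes rose and 1261 fell in Cl1, and 2324 rose and 2580 fell in Cl10, fewer because the threshold was stricter. With 1 library left out and the lone library taken to vary like the other group, genes that rose in Cl1 ran from 1444 to 3565 and those that fell from 1257 to 3581, and in Cl10 from 2376 to 5914 and from 2765 to 5974.

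Replicate numbers paired nothing in the labels, and the deviations of same-numbered libraries correlated at -0.261 (Cl1 and control), -0.214 (Cl10 and control) and -0.000611 (Cl10 and Cl1) over 11990 genes. With the replicate block 2415 genes rose and 2426 fell in Cl1, 4224 and 4457 in Cl10, and 5010 and 4884 in Cl10 against Cl1, and ESRP1 in Cl10 did not pass (adjusted p = 0.105). A crossed replicate block, chosen after seeing the data, gave 3409 and 3485 in Cl1 and 4870 and 5057 in Cl10, with 4 members higher in Cl1; the cause was not tested.

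The limits of depth fell on ZEB1 and ZEB2, with 8 to 159 and 14 to 47 raw counts a library. With 2 libraries a group from clones of 1 cell each, a change from DUSP1 and a trait of the founding cell cannot be told apart. These libraries do not show protein, mature miRNAs or exon choice.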
